A study of Mus musculus with 8 samples.

Results

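The comparison pools both kidney injury models of the study. It sets 5 injured libraries against 3 control libraries, which together are all 8 libraries of the series, over every circular RNA (circRNA) of the deposited table. All libraries are of total RNA from the kidneys of C57BL/6L mice aged 8 to 10 weeks. The control libraries are titled WT, and the design text calls the control animals sham-operated. The injured libraries fall into 2 called acute-chronic (AC), for which the design text names I/R (ischaemia/reperfusion), and 3 with unilateral ureteral obstruction (UUO), all taken at day 5. No genetic change or drug is named for any group. The labels do not say whether each library came from its own animal, nor give the length of ischaemia or the surgery of the AC model, so the p-values here reflect variation among libraries and it may be technical.

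A circRNA forms when the spliceosome joins the end of a downstream exon to the start of an upstream one, which leaves a closed loop without free ends. Such loops resist exonucleases and tend to outlive the linear mRNA of the same host gene, so their level depends on host transcription, on the rate of back-splicing and on dilution or decay. In injured kidney, tubular cells are known to lose transport and oxidative metabolism, to re-enter the cell cycle and to take on a simpler, adhesive and migratory shape, while fibroblasts and leukocytes gather in the interstitium. The host genes below are ordered by those roles. The table does not hold linear transcripts, so every value is of a circRNA, named by its host gene, and not of the mRNA or protein.

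Total circRNA counts ran from 40865 to 65145 per library. They were 49130 ± 6146 (SD, n = 5) in injured and 55561 ± 10728 (SD, n = 3) in control kidney (two-sided exact permutation test, p = 0.321), where the smallest p that 5 against 3 libraries allow is 0.0357. CircRNAs with any count numbered 3521 ± 118 (SD, n = 5) against 3584 ± 205 (SD, n = 3), with exact permutation p = 0.536. Markers of other cell types gave little to go on. Of 31 immune marker genes, 2 (Ikzf1 and Prkcb) had a listed circRNA, with 46 counts in all, 44 of them from Prkcb. Their summed level was 15.4 to 45.5 CPM (counts scaled to library size) in control and 61.04 to 318.1 CPM in injured libraries, while Ptprc, Cd68 and Adgre1 had none listed. The fibroblast list of 10 genes had Fbn1 alone, with 2 counts, both in injured kidney. Endothelial markers (4 of 22 listed) spanned 292 to 318 CPM in control and 299 to 489 CPM in injured libraries, and podocyte markers (3 of 18 listed) 400 to 860 CPM and 139 to 488 CPM. Members of both sums differed. Meis2 was at 0 to 136.5 CPM in control and 171.3 to 325.6 CPM in injured libraries, and Ldb2 at 68.23 to 208.5 CPM and 39.23 to 101.7 CPM. Flt1 spanned 76.75 to 113.7 CPM and 0 to 122.4 CPM, and Tek 0 CPM and 0 to 97.88 CPM. Of the podocyte hosts, Dach1 spanned 136.5 to 552.6 CPM and 0 to 264.5 CPM. Magi2 spanned 139 to 363.9 CPM and 63.97 to 333.4 CPM, and Robo2 0 CPM and 0 to 85.29 CPM. Proximal tubule markers (Lrp2 and Slc7a8, 2 of 13 listed) were present in all libraries, at 1774 to 2901 CPM in control and 1091 to 1468 CPM in injured kidney; Lrp2 alone spanned 205 to 1412 CPM and 225 to 576 CPM, and Slc7a8 is itself called lower below. Distal nephron and collecting duct markers (4 of 31 listed) lay at 1859 to 2487 CPM in control and 618 to 1628 CPM in injured kidney. Klhl3, itself called lower below, gave 416 of their 602 counts, and without it Erbb4, Nr3c2 and Wnk1 summed to 191 to 341 CPM in control and 320 to 1059 CPM in injured libraries. The share of these cell types in the results was not tested, and in whole kidney fewer cells of a type and less RNA per cell cannot be told apart.

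Injured kidneys held higher circRNAs of Dcdc2a, Samd4, Psd3, Vav3 and Smox among others, and lower circRNAs of Cpeb3, Klhl3, Cryl1, Oxct1 and Arhgap10 among others. Of 6315 listed circRNAs, 1187 from 858 host genes had enough counts to be tested, and they held 78.6% to 81.3% of the counts of a library. Among them 87 from 76 host genes passed an adjusted p of 0.05 in edgeR's quasi-likelihood test with Benjamini-Hochberg adjustment, which is 7.33% of those tested. In injured kidney 48 were higher (4.04% of those tested) and 39 lower (3.29%), of which 37 and 28 differed by at least 2-fold. The median change of the called circRNAs was 2.45-fold in each direction. Circles called higher made up 3.68% to 3.95% of all counts in the control libraries and 7.78% to 8.84% in the injured ones. Those called lower made up 8.88% to 10.25% in control and 4.23% to 4.92% in injured kidney. These shares describe circRNAs that the test had chosen and are no further evidence.

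The split between higher and lower depended on the scaling. With trimmed-mean (TMM) factors the median log2 fold change of all tested circRNAs was 0.02, with 610 above and 577 below 0. The deposited signal divides the counts of each library by 1 constant, between 8718 and 11941. With those constants as library sizes the median was -0.29, and 20 were called higher and 59 lower; 59 of the 87 calls were shared, and none of the 87 changed sign. Of the 87, 81 had no overlap of CPM between the 5 injured and the 3 control libraries, against 172 of all 1187 tested (14.5%; 91 or 7.67% higher and 81 or 6.82% lower). When 1 of the 8 libraries was left out, in all 8 ways, 31 calls (20 higher, 11 lower) held every time and 35 held in 4 settings or fewer. Without control replicate 3 the number of calls was 40, without control replicate 2 it was 53, without UUO replicate 3 it was 50 and without UUO replicate 2 it was 57.

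**Figure D1:**
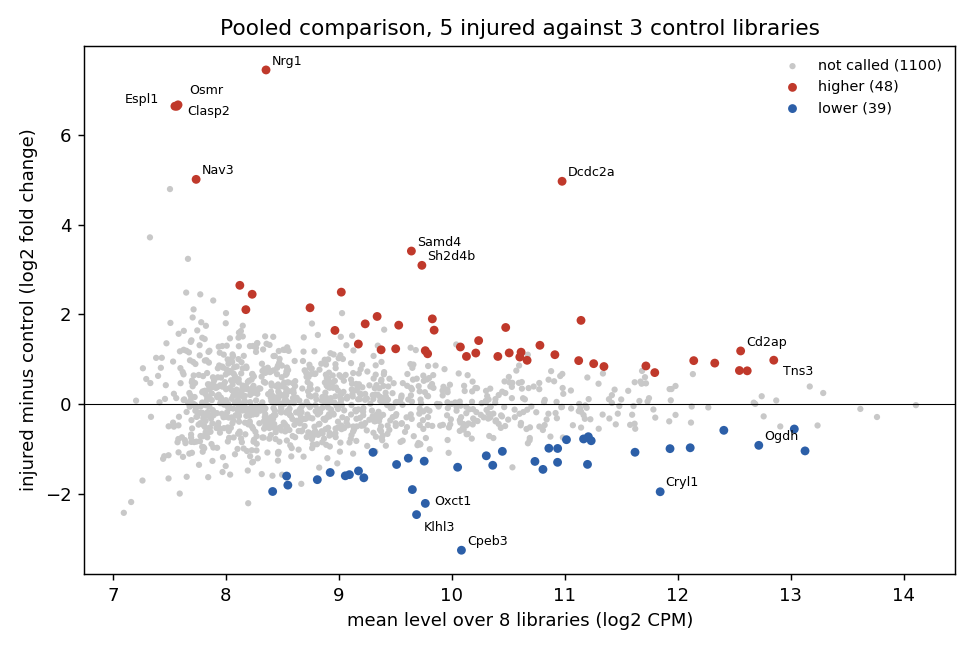
Mean level over 8 libraries (log2 CPM, x axis) against the fitted log2 fold change, injured minus control (y axis), for 1187 tested circRNAs, with 48 called higher in red, 39 called lower in blue and the rest in grey. Dcdc2a stands out at a high level at 4.97 on the log2 scale; the fitted values of Nrg1, Osmr, Espl1 and Clasp2, which had no control count, depend on the prior count of the fit and are no measure of size.

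Among circRNAs of injury and growth signals, that of Dcdc2a (mmu_circ_0004549), a doublecortin-domain protein of the primary cilium, had the strongest evidence of all tested. It stood at 138, 78.2 and 86.7 CPM in the control libraries, at 2430 and 2590 CPM in AC and at 3327, 3719 and 3740 CPM in UUO. The lowest injured library was thus far above the highest control, and the fold change was 31.3 (log2 4.97, SE 0.34, adjusted p = 1.69e-07). In counts this meant 5, 4 and 4 in control, 97 and 85 in AC, and 125, 151 and 170 in UUO. Nrg1 encodes neuregulin 1, a ligand of the ERBB receptors, and its circRNA (mmu_circ_0014776) was at 0 in all 3 controls. The injured libraries held 601 and 0 CPM in AC and 612, 1010 and 396 CPM in UUO, so AC replicate 2 was at the control level while the others were not. Against a floor of 3 counts over the control group it was at least 23.3-fold higher, and at least 17.9-fold with 1 injured library left out (adjusted p = 0.00986).

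Osmr, the receptor chain for oncostatin M, also had no control count of its circRNA (mmu_circ_0005739). It stood at 276 and 213 CPM in AC and at 346, 296 and 396 CPM in UUO, at least 13.6-fold above control (at least 12.6-fold with 1 injured library left out, adjusted p = 0.00876). Nfkb1 gives the p105 precursor of an NF-kappaB subunit. Its circRNA (mmu_circ_0010477) was at 664, 919 and 889 CPM in control, 2004 and 2163 CPM in AC and 1597, 1675 and 1738 CPM in UUO. All injured libraries lay above all controls, by 2.21-fold (SE 0.25 in log2, adjusted p = 0.0118). The Smad1 circRNA, from a transducer of BMP receptors (mmu_circ_0001699), was 2.67-fold higher, at 1574 ± 274 CPM (SD, n = 5) against 595 ± 229 CPM (SD, n = 3), with adjusted p = 0.00986. The Smad1 call was lost without control replicate 3 (adjusted p = 0.0599), and that of Nfkb1 with the deposited constants as library sizes (adjusted p = 0.133). By limma-voom Nrg1 and Osmr did not pass (adjusted p = 0.434 and 0.163).

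CircRNAs of cell division and microtubule genes were next. Espl1 encodes separase, the protease that cleaves cohesin at anaphase, and its circRNA (mmu_circ_0000652) had 0 counts in the 3 controls. It was at 326 and 274 CPM in AC and 240, 394 and 264 CPM in UUO, so each injured library held it, at least 13.3-fold above the floor (at least 12.3-fold with 1 injured library left out, adjusted p = 0.00876). Bub1b, a kinase of the spindle checkpoint, gave 304, 411 and 369 CPM of its circRNA (mmu_circ_0001058) in control, 576 and 670 CPM in AC and 1012, 1108 and 858 CPM in UUO. The groups did not overlap, and the change was 2.32-fold (adjusted p = 0.0417). Nav3, a microtubule-binding navigator protein, had 1 count of its circRNA (mmu_circ_0000211) in control and 65 in injured kidney, a ratio of 44.2 with a 95% counting interval from 7.65 to 1771 (adjusted p = 0.00986). The single control count was in control replicate 3. Clasp2, which binds growing microtubule ends, had no control count of its circRNA (mmu_circ_0015332). The levels were 276 and 488 CPM in AC and 506, 246 and 0 CPM in UUO, so UUO replicate 3 overlapped the controls; the bound was 13.5-fold (11.2-fold with 1 injured library left out, adjusted p = 0.0357). With 1 library left out Bub1b kept the call only without either AC replicate, and Clasp2 only without AC replicate 1 or UUO replicate 3 (adjusted p otherwise up to 0.126 and 0.0999). With the deposited constants Bub1b lost the call (adjusted p = 0.180). By limma-voom none of these 4 passed (adjusted p from 0.0610 to 0.485).

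The adhesion, actin and Hippo genes gave the most abundant of the circRNAs called higher. Tns3 encodes tensin 3, which ties integrins to actin. Its circRNA (mmu_circ_0000233) was at 4506, 5376 and 3882 CPM in control, 7765 and 8958 CPM in AC and 8491, 9704 and 10380 CPM in UUO. The groups lay apart, at 1.97-fold with a small error (SE 0.16 in log2, adjusted p = 0.00258). Cd2ap, an adaptor that anchors membrane proteins to actin and is known from the podocyte slit diaphragm, gave a circRNA (mmu_circ_0006764) at 2239, 4536 and 3231 CPM in control. It was at 7740 and 8776 CPM in AC and at 8731, 5690 and 7259 CPM in UUO, again without overlap (2.28-fold, adjusted p = 0.00513). The summed podocyte markers given above overlapped between injured and control kidney, and the cell source of the Cd2ap circRNA was not tested.

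Nedd9, a docking protein of focal adhesions, had 82.9, 78.2 and 239 CPM of its circRNA (mmu_circ_0004594) in control, 676 and 609 CPM in AC and 586, 567 and 594 CPM in UUO. The injured libraries were close together and above the controls, by 2.15 on the log2 scale (SE 0.45, adjusted p = 0.00986), which became 2.87 without control replicate 3, the highest control. Epb4.1l2, a protein of the membrane skeleton, gave a circRNA (mmu_circ_0002128) at 27.6, 137 and 217 CPM in control, 301 and 457 CPM in AC and 1012, 862 and 1144 CPM in UUO. Its AC libraries lay between the controls and the UUO libraries, and the pooled change was 5.65-fold (adjusted p = 0.0136). The guanine nucleotide exchange factor Vav3, which activates Rac (mmu_circ_0010364), gave 227 ± 58.4 CPM (SD, n = 3) in control and 899 ± 114 CPM (SD, n = 5) in injured kidney (3.88-fold, adjusted p = 0.00311). Tmod3, which caps actin filaments at the slow-growing end (mmu_circ_0015887), was 4.31-fold higher (adjusted p = 0.0444). Ptpn14 and Amotl1 encode proteins that bind the Hippo effector YAP. The Ptpn14 circRNA (mmu_circ_0000130) was at 802, 626 and 347 CPM in control, 2254 and 2316 CPM in AC and 1171, 2414 and 1474 CPM in UUO, all above the controls (3.27-fold, adjusted p = 0.00800). That of Amotl1 (mmu_circ_0001745) was 2.18-fold higher (adjusted p = 0.0319), and that of the phosphatase Ptpn13 (mmu_circ_0001372) 3.46-fold (adjusted p = 0.0188).

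Of these 9, the calls of Tns3, Cd2ap, Nedd9, Epb4.1l2, Vav3 and Ptpn14 held in all 8 settings without 1 library; Ptpn13 was lost without control replicate 2 or 3 or UUO replicate 3 (adjusted p up to 0.0817). Amotl1 held only without an AC replicate or UUO replicate 1, and Tmod3 only without AC replicate 1 or UUO replicate 1 (adjusted p otherwise up to 0.126 and 0.163). With the deposited constants Tns3, Cd2ap, Amotl1 and Tmod3 did not pass (adjusted p from 0.0896 to 0.180), and by limma-voom Nedd9, Epb4.1l2, Tmod3 and Ptpn13 did not (0.0580 to 0.360).

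**Figure D2:**
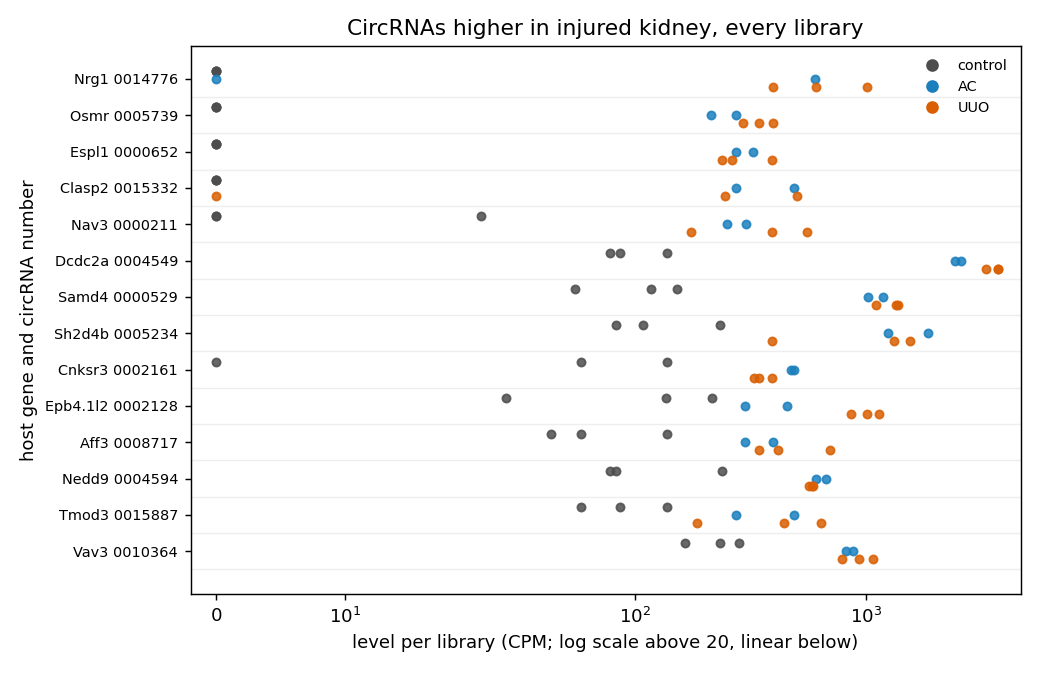
CPM in each of the 8 libraries (x axis, log scale above 20 and linear below) of 14 circRNAs higher in injured kidney, with control in grey, AC in blue and UUO in orange; no bars, each point is a library. Nrg1, Osmr, Espl1 and Clasp2 are at 0 in all controls, 1 AC library of Nrg1 and 1 UUO library of Clasp2 are at 0 too, and the Dcdc2a points lie between 2430 and 3740 CPM in injured against 78.2 to 138 CPM in control libraries.

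Regulators of RNA and transcription were called in both directions. Samd4 encodes a translational repressor of the Smaug family, and its circRNA (mmu_circ_0000529) was at 55.3, 117 and 152 CPM in control, 1027 and 1188 CPM in AC and 1358, 1108 and 1386 CPM in UUO. The lowest injured value was far above the highest control, at 10.7-fold (log2 3.41, SE 0.38, adjusted p = 7.49e-05). The splicing factor Mbnl2 (mmu_circ_0004992) had 276, 235 and 369 CPM in control, 1152 and 1493 CPM in AC and 932, 862 and 594 CPM in UUO. Its AC libraries were the highest, and the pooled change was 3.39-fold (adjusted p = 0.00986). Aff3, of a family tied to transcription elongation (mmu_circ_0008717), was 5.47-fold higher (adjusted p = 0.0192) and the nuclear exonuclease Xrn2 (mmu_circ_0009421) 1.63-fold (adjusted p = 0.0428). Aff3 was lost without control replicate 2 or 3 or UUO replicate 3 (adjusted p up to 0.0872), and Xrn2 held only without control replicate 2 or AC replicate 1 (adjusted p otherwise up to 0.180).

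A pair of circRNAs of Glis3, a zinc-finger factor whose loss causes cystic kidneys, were higher: mmu_circ_0000943 by 1.96-fold (adjusted p = 0.00513) and mmu_circ_0007673 by 2.21-fold (adjusted p = 0.0319). Those of the factors Elf2 (mmu_circ_0001123) and Nfix (mmu_circ_0001704) and of the histone methyltransferase Whsc1, now Nsd2 (mmu_circ_0001335), were 2.09-fold, 1.68-fold and 1.87-fold higher (adjusted p = 0.0319, 0.0319 and 0.0165). In the other direction Smarca2, an ATPase of the SWI/SNF complex (mmu_circ_0007648), had 332, 1564 and 846 CPM in control and 225 to 396 CPM in the 5 injured libraries. The lowest control overlapped the injured range, and the log2 fold change of -1.60 (adjusted p = 0.0319) became -0.96 without control replicate 2 (adjusted p = 0.315) and held the call only without control replicate 1. Samd4, Mbnl2 and mmu_circ_0000943 of Glis3 held without any single library, while Whsc1 was lost without control replicate 2 or 3 or UUO replicate 3 (adjusted p up to 0.0613). Elf2 held only without an AC replicate or UUO replicate 2, Nfix only without those AC replicates, control replicate 1 or UUO replicate 1, and mmu_circ_0007673 only without control replicate 3 or AC replicate 1 (adjusted p otherwise up to 0.127). Both Glis3 circRNAs, Elf2, Nfix, Whsc1 and Xrn2 missed the threshold with the deposited constants (adjusted p from 0.0820 to 0.443), and Aff3 and Smarca2 missed it by limma-voom (0.303 and 0.0798).

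Other large increases had host genes outside the roles given so far. Among them, Smox is in the list of metabolic enzymes and Cnksr3 acts in tubular transport, both taken up below for decreases. Sh2d4b, an SH2-domain adaptor, gave a circRNA (mmu_circ_0005234) at 82.9, 235 and 108 CPM in control, 1854 and 1249 CPM in AC and 1331, 394 and 1562 CPM in UUO. UUO replicate 2 was the lowest injured library and still above the controls, and the change was 8.55-fold (adjusted p = 0.00258). Cnksr3, a scaffold that aids aldosterone-driven sodium uptake in the distal nephron, had 138, 58.7 and 0 CPM of its circRNA (mmu_circ_0002161) in control, 476 and 488 CPM in AC and 346, 394 and 330 CPM in UUO. Its log2 fold change of 2.65 (adjusted p = 0.0356) held only without control replicate 1, where it was 3.61, and was lost in the other 7 settings (adjusted p from 0.0608 to 0.0929). Smox, spermine oxidase, gave a circRNA (mmu_circ_0001068) that was 3.74-fold higher (330 ± 199 CPM, SD, n = 3, against 1255 ± 266 CPM, SD, n = 5; adjusted p = 0.00876) and held in all 8 settings without 1 library. By limma-voom Sh2d4b and Cnksr3 did not pass (adjusted p = 0.147 and 0.348), and with the deposited constants Cnksr3 did not (0.0650).

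Of the 39 circRNAs called lower, 7 came from the list of mitochondrial and metabolic enzymes and 8 from that of small GTPase regulators. These lists had 16 and 59 tested circRNAs and also gave 1 (Smox, above) and 5 called higher. Among all tested circRNAs 3.29% were called lower. The lower ones of the enzymes are given first, with Gyk, Lactb2 and 1300001I01Rik beside them from outside that list. Cryl1, an L-gulonate dehydrogenase strongly expressed in kidney, had 5971, 6823 and 7785 CPM of its circRNA (mmu_circ_0000543) in control, 1102 and 1219 CPM in AC and 2449, 1823 and 2244 CPM in UUO. Both AC libraries were below all UUO libraries and these below all controls, and the pooled decrease was 3.87-fold (log2 -1.95, SE 0.24, adjusted p = 1.82e-04). Oxct1 is the mitochondrial transferase that activates ketone bodies for oxidation. Its circRNA mmu_circ_0000571 was at 3096, 2444 and 3383 CPM in control, 1002 and 945 CPM in AC and 1464, 567 and 1430 CPM in UUO. The groups lay apart by 2.74-fold (adjusted p = 0.00601), and mmu_circ_0005660 of the same host, with a count of 0 in AC replicate 1, was lower by 4.63-fold (adjusted p = 0.0163).

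Ogdh, oxoglutarate dehydrogenase, which works in the citric acid cycle, gave one of the most abundant called circRNAs (mmu_circ_0000231). It was at 8321, 12080 and 8197 CPM in control, 5310 and 5668 CPM in AC and 4632, 4803 and 4861 CPM in UUO. The 5 injured libraries were within a narrow range below the controls, by 1.89-fold (SE 0.16 in log2, adjusted p = 0.00350). Bckdhb, a subunit of the complex that breaks down branched-chain amino acids, had mmu_circ_0001822 1.96-fold lower (6370 ± 1184 CPM, SD, n = 3, against 3251 ± 540 CPM, SD, n = 5; adjusted p = 0.00601) and mmu_circ_0015952 2.41-fold lower (adjusted p = 0.0150). Glycerol kinase, listed as Gyk (mmu_circ_0016389), had 1493, 1603 and 1344 CPM in control, 501 and 366 CPM in AC and 506, 616 and 0 CPM in UUO, a 3.74-fold decrease with UUO replicate 3 at 0 (adjusted p = 0.0356). Papss1, which makes the sulphate donor PAPS (mmu_circ_0001170), was 2.97-fold lower (adjusted p = 0.0428). Lactb2, an endoribonuclease of mitochondria (mmu_circ_0008185), was 3.12-fold lower (adjusted p = 0.00601). The row of 1300001I01Rik, now Cluh, a binder of mRNAs for mitochondrial proteins (mmu_circ_0000287), was 2.80-fold lower (adjusted p = 0.0118).

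Calls of Cryl1, Ogdh, Lactb2, 1300001I01Rik, mmu_circ_0000571 and mmu_circ_0001822 held in all 8 settings without 1 library. That of mmu_circ_0015952 was lost without control replicate 2 (adjusted p = 0.0823) and that of mmu_circ_0005660 without control replicate 3 or UUO replicate 3 (up to 0.0878). Gyk held only without AC replicate 1, UUO replicate 2 or UUO replicate 3, and Papss1 only without AC replicate 2 (adjusted p otherwise up to 0.0923 and 0.127).

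Tubular transport genes followed. Klhl3, the adaptor through which a ubiquitin ligase removes WNK kinases in the distal nephron, had 1493, 2131 and 1431 CPM of mmu_circ_0004688 in control. After injury it was at 50.1 and 518 CPM in AC and at 266, 443 and 264 CPM in UUO, below all controls (5.51-fold, log2 -2.46, SE 0.42, adjusted p = 0.00260). Its circRNA mmu_circ_0004687 was at 608, 665 and 651 CPM in control, 326 and 213 CPM in AC and 107, 271 and 132 CPM in UUO, also without overlap (3.04-fold, adjusted p = 0.0319). Slc7a8, an exchanger of neutral amino acids at the basolateral side of the proximal tubule, gave a circRNA (mmu_circ_0000539) at 1907, 1896 and 2385 CPM in control, 1077 and 1188 CPM in AC and 825, 788 and 1100 CPM in UUO. All injured libraries lay below the controls, by 2.07-fold (adjusted p = 0.0150). Stk39 encodes SPAK, the kinase that acts on sodium-chloride cotransporters, and its circRNA (mmu_circ_0001028) was lower, at 6852 ± 718 CPM (SD, n = 3) against 4582 ± 424 CPM (SD, n = 5), a log2 fold change of -0.58 with SE 0.15 (adjusted p = 0.0319). The other 3 tested circRNAs of Stk39 were not called (log2 -0.34 to 0.02). Counts summed over this host did not pass (adjusted p = 0.0522). For Lrp2, the endocytic receptor megalin (mmu_circ_0010128), the log2 value was -0.84 (SE 0.45), which did not pass (adjusted p = 0.329). That of Slc16a7, a monocarboxylate transporter (mmu_circ_0002039), had -2.21 (SE 0.65) and was just outside the threshold (adjusted p = 0.0507). mmu_circ_0004688 held without any single library, Slc7a8 was lost without control replicate 3 (adjusted p = 0.0910), Stk39 held only without control replicate 1 or an AC replicate, and mmu_circ_0004687 only without AC replicate 1 or UUO replicate 2 (adjusted p otherwise up to 0.132 and 0.110).

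The largest decrease was that of Cpeb3, an mRNA-binding regulator of translation (mmu_circ_0007737). It was at 2626, 2111 and 2689 CPM in control, 150 and 0 CPM in AC and 559, 197 and 352 CPM in UUO. Every injured library was far below the controls, by 9.55-fold (log2 -3.25, SE 0.47, adjusted p = 7.65e-04), and the call held in all 8 settings without 1 library. Zfp276, a zinc-finger gene (mmu_circ_0014660), was 3.85-fold lower (adjusted p = 0.0489) with a count of 0 in AC replicate 2. The circRNA mmu_circ_0000822, listed without a host gene, was 3.49-fold lower (adjusted p = 0.0420). With 1 library left out Zfp276 held only without control replicate 1 or AC replicate 2 and mmu_circ_0000822 only without UUO replicate 3 (adjusted p otherwise up to 0.228 and 0.221), and by limma-voom neither passed (0.169 and 0.125).

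**Figure D3:**
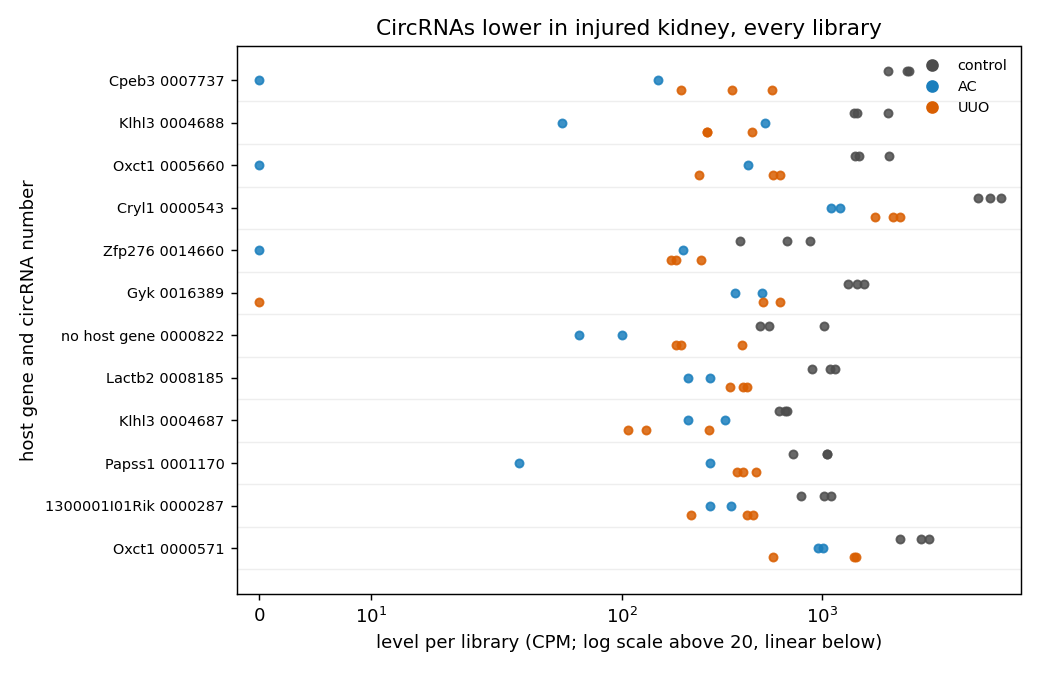
CPM in each of the 8 libraries (x axis, log scale above 20 and linear below) of 12 circRNAs lower in injured kidney, with control in grey, AC in blue and UUO in orange; each point is a library. Controls lie to the right of all injured libraries in each row, Cpeb3 from 2111 to 2689 CPM against 0 to 559 CPM, and a library at 0 appears for Cpeb3, Oxct1, Zfp276 and Gyk.

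Regulators of small GTPases gave calls both ways, and those from 1 host went the same way. Arhgap10, a GTPase-activating protein of the RhoGAP class, had the most abundant called circRNA, mmu_circ_0001692. It was at 11670, 12320 and 15550 CPM in control, 5336 and 6399 CPM in AC and 7480, 6231 and 6577 CPM in UUO. The groups lay well apart (2.06-fold lower, SE 0.15 in log2, adjusted p = 6.52e-04). Arhgap10 circRNAs mmu_circ_0001691 and mmu_circ_0014982 were 2.10-fold and 1.98-fold lower (adjusted p = 0.00876 and 0.0152). Arhgap32, another RhoGAP, had mmu_circ_0015520, mmu_circ_0001764 and mmu_circ_0001765 lower by 2.57-fold, 1.99-fold and 1.76-fold (adjusted p = 0.0152, 0.0220 and 0.0319). Rasa2, a Ras GTPase-activating protein, gave an abundant circRNA (mmu_circ_0001830) that was 1.47-fold lower (10450 ± 2359 CPM, SD, n = 3, against 7127 ± 834 CPM, SD, n = 5, adjusted p = 0.0489). The more abundant mmu_circ_0001829 of Rasa2 had a log2 fold change of -0.11 (adjusted p = 0.731) and mmu_circ_0016018 one of 0.27 (adjusted p = 0.891). Counts summed over Rasa2 did not pass (adjusted p = 0.1115).

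In the other direction, Psd3, an exchange factor for Arf6, had mmu_circ_0001683 at 940, 899 and 716 CPM in control, 2079 and 2742 CPM in AC and 3647, 3645 and 3432 CPM in UUO. AC lay between control and UUO without overlap, and the change was 3.65-fold (adjusted p = 5.89e-04). A second Psd3 circRNA, mmu_circ_0001682, was 2.49-fold higher (adjusted p = 0.00876). Arhgap26, a RhoGAP (mmu_circ_0000865), was 1.81-fold higher (adjusted p = 0.0165). mmu_circ_0001692 and both Psd3 circRNAs held without any single library; mmu_circ_0014982 was lost without control replicate 1 (adjusted p = 0.0679), and mmu_circ_0001691 and Arhgap26 without control replicate 3 (0.0749 and 0.0878). For Arhgap32, mmu_circ_0001764 was lost without control replicate 2 or 3 (up to 0.0859) and mmu_circ_0015520 without control replicate 3 or UUO replicate 3 (up to 0.113). mmu_circ_0001765 held only without control replicate 1 or UUO replicate 2, and Rasa2 only without control replicate 1 (adjusted p otherwise up to 0.116 and 0.236). With the deposited constants Arhgap26 did not pass (adjusted p = 0.210).

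Among genes of ubiquitin transfer and endosome traffic, Snx29, a sorting nexin (mmu_circ_0006062), had 4147, 3206 and 4012 CPM in control, 1227 and 1402 CPM in AC and 1917, 1823 and 1100 CPM in UUO. Its injured libraries were all below its controls (2.53-fold, adjusted p = 0.00260). Fbxw7, a substrate receptor of a ubiquitin ligase (mmu_circ_0010820), was 2.09-fold higher (adjusted p = 0.0441). The endosomal kinesin Kif16b (mmu_circ_0009398) was 2.10-fold lower (adjusted p = 0.0428). Snx29 held without any single library, Fbxw7 only without control replicate 3 or AC replicate 1, and Kif16b only without AC replicate 1 (adjusted p otherwise up to 0.161 and 0.137). With the deposited constants Fbxw7 did not pass (0.160).

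The host gene lists, compiled with earlier results of these data known, describe the same calls by function, with 4.04% higher and 3.29% lower among all tested circRNAs as the background. Of 13 tested circRNAs of proximal tubule and nephron transport genes 0 were called higher and 3 lower, and all 13 had a negative log2 fold change (median -0.84). They came from 10 hosts, and the 3 calls from Klhl3 and Slc7a8. The circRNAs mmu_circ_0004687 of Klhl3 and mmu_circ_0002039 of Slc16a7 needed the control libraries to pass the count filter, which favours a negative value. Neither is support for a change of transport genes. Of all 1187 tested circRNAs 577 had a negative value. Of 16 from mitochondrial and metabolic enzymes 1 (Smox) was called higher and 7 lower, with a median of -0.94. The 16 came from 11 hosts, and Oxct1 and Bckdhb gave 2 of the lower calls each. A positive log2 fold change was found for 5, among which Smox alone was called. Of 8 from cell cycle and mitosis genes 2 were called higher and 0 lower (median 0.72). Espl1 among them had no control count, so it passed the count filter through the injured libraries alone. The same holds for Nrg1, Osmr, Clasp2 and, with 1 control count, Nav3 in other lists. Dcdc2a, Samd4, Nedd9 and Epb4.1l2 had control counts, but no control library reached the level of the filter. In the other direction, mmu_circ_0007737 of Cpeb3 needed the control libraries to pass it. None of these calls is support for a change of its list. Of 5 from matrix and TGF-beta genes Smad1 alone was called (median 0.68), and Tgfbr2 had a log2 fold change of 0.68 (adjusted p = 0.409). The 3 tested circRNAs of tubular injury genes (Dcdc2a, Nfkb1 and Dock10) held 2 called higher (median 1.14).

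Larger lists were mixed. Adhesion, actin and membrane skeleton genes gave 4 higher and 0 lower of 27 (median 0.19), Hippo and Wnt genes 2 and 0 of 16 (median 0.29), and receptor and kinase genes 3 and 1 of 36 (median 0.16); with the deposited constants these medians were -0.09, -0.04 and -0.16, against -0.29 for all tested circRNAs. Small GTPase regulators gave 5 higher and 8 lower of 59 (median -0.11), where the 13 calls came from 8 host genes. RNA-binding and translation genes gave 3 higher and 1 lower of 34 (median 0.04), microtubule and cilium genes 3 and 1 of 21 (median -0.23), chromatin and transcription regulators 5 and 1 of 76 (median -0.01), and ubiquitin and endosome genes 1 and 2 of 56 (median -0.13). With the constants the RNA-binding median was -0.29. Dcdc2a counts in both the injury and the cilium list.

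**Figure D4:**
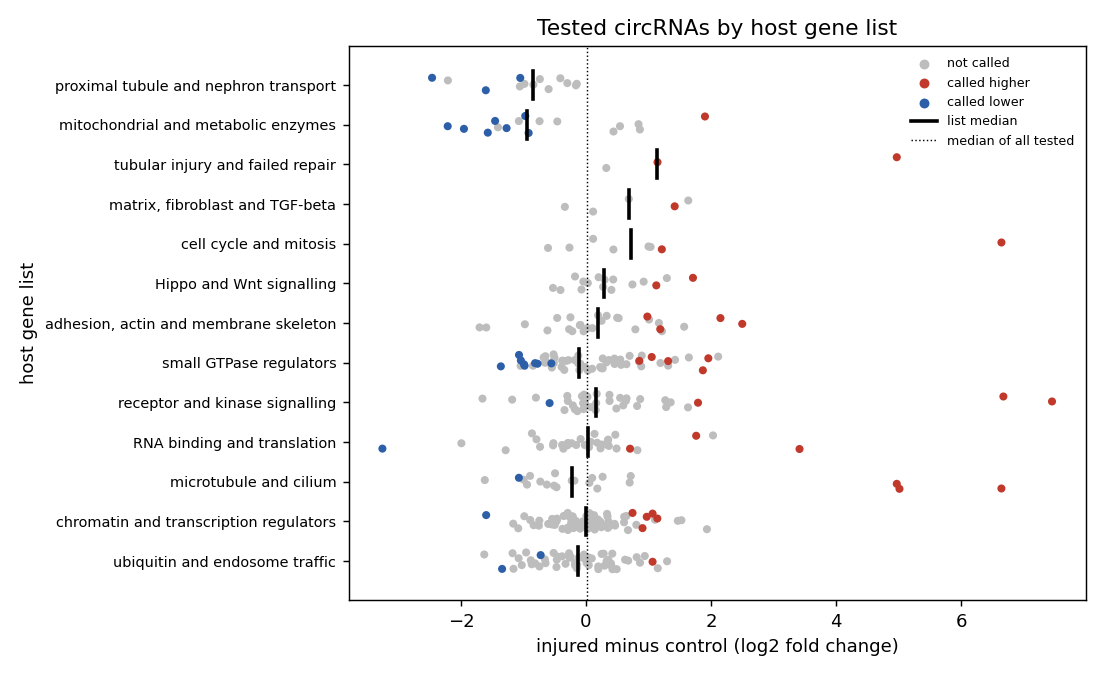
Fitted log2 fold change, injured minus control (x axis), of each tested circRNA in 13 host gene lists (y axis), with circRNAs called higher in red, called lower in blue and the rest in grey; the black bar is the list median and the dotted line the median of all 1187 tested. Transport and metabolic lists have medians of -0.84 and -0.94, and the circRNAs of Nrg1, Osmr, Espl1 and Clasp2 sit at the far right because they had no control count.

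The pooled value averages 2 models, so each was also set against the same controls in 1 fit of 3 groups over the same 1187 circRNAs. Because both contrasts share the control libraries, their likeness is no result, and the values are given side by side. AC against control had 48 called (4.04% of those tested), 27 higher (2.27%) and 21 lower (1.77%), and UUO against control 72 (6.07%), 48 higher (4.04%) and 24 lower (2.02%), with 2 and 3 injured libraries. Of the 87 pooled calls 41 were also called in AC, 64 in UUO and 15 in neither. For Dcdc2a the log2 fold changes were 4.63 (SE 0.33) in AC and 5.15 (SE 0.32) in UUO, and for Samd4 3.28 (SE 0.43) and 3.49 (SE 0.40). For Klhl3 mmu_circ_0004688 they were -2.62 (SE 0.60) and -2.37 (SE 0.49), and for Oxct1 mmu_circ_0000571 -1.61 (SE 0.38) and -1.36 (SE 0.32). The UUO minus AC difference was 0.52 (SE 0.25, unadjusted p = 0.0602) for Dcdc2a and smaller than its SE for the other 3.

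The 15 called only with the libraries pooled included Tmem56 (mmu_circ_0010409), a transmembrane protein, with log2 fold changes of -1.30 in AC and -1.14 in UUO (adjusted p = 0.0956 and 0.0561) and a pooled value of -1.20 (SE 0.29, adjusted p = 0.0188). The mitochondrial ATPase gene Vwa8, listed as 1300010F03Rik (mmu_circ_0005455), had -1.13 and -1.17, and -1.15 pooled (adjusted p = 0.0227). Tbc1d14, a Rab GTPase-activating-domain protein (mmu_circ_0001341), had -0.91 and -0.69, and -0.77 pooled (adjusted p = 0.0289). The other 3 tested circRNAs of Tbc1d14 were not called (log2 -0.12 to 0.45), nor were the counts summed over the host (adjusted p = 0.140). Smarca2 had -1.73 and -1.52, and -1.60 pooled. Srgap1, a RhoGAP of Slit-Robo signalling (mmu_circ_0000220), had 1.03 and 1.06, and 1.05 pooled (adjusted p = 0.0320). All 5 fell short of the threshold in each model alone. Tmem56 was lost without control replicate 3 (adjusted p = 0.0859), 1300010F03Rik without control replicate 2 or UUO replicate 1 or 3 (up to 0.143), and Tbc1d14 without control replicate 2 or 3 or UUO replicate 1 (up to 0.104). Srgap1 held only without control replicate 2, AC replicate 1 or UUO replicate 1 and Smarca2 only without control replicate 1 (adjusted p otherwise up to 0.110 and 0.315), and with the deposited constants Srgap1 did not pass (0.214).

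The direct contrast of UUO with AC called 0 of 1187 circRNAs by edgeR (lowest adjusted p 0.252, with 70 at an unadjusted p under 0.05) and 0 by limma-voom (63 unadjusted). DESeq2 called 1 (48 unadjusted), that of Spast, a microtubule-severing ATPase (mmu_circ_0006994), with adjusted p = 0.0107 against 0.252 by edgeR. Its counts were 4, 27 and 10 in control, 21 and 14 in AC and 0 in all 3 UUO libraries, so it was at 0 in UUO alone and was not a pooled call. Of the 87 pooled calls 11 had an unadjusted p under 0.05 for UUO minus AC, and those named here were chosen after their values were seen. The decrease of mmu_circ_0001764 of Arhgap32 was -1.62 (SE 0.24) in AC and -0.69 (SE 0.20) in UUO (unadjusted p = 0.00146, adjusted p = 0.576). Cryl1 had -2.56 (SE 0.25) and -1.66 (SE 0.20), with unadjusted p = 0.00244 and adjusted p = 0.603. Cpeb3 had -4.88 (SE 0.65) and -2.74 (SE 0.44), on 6 and 0 counts in AC and 21, 8 and 16 in UUO (unadjusted p = 0.0101, adjusted p = 0.792). For Epb4.1l2 the values were 1.49 (SE 0.58) and 2.90 (SE 0.50), with unadjusted p = 0.0159 and adjusted p = 0.792. None of these differences passed the adjustment, which with 2 against 3 libraries does not show that the models act alike.

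Summing the counts of all listed circRNAs of a host gene asked whether the host as a whole gave more or fewer circular reads. Of 1028 hosts tested 86 passed (8.37%), 52 higher (5.06%) and 34 lower (3.31%). Among hosts with several listed circRNAs the largest increases were those of Nav3, with counts of 0, 0 and 1 in control, 11 and 12 in AC and 26, 17 and 8 in UUO, Samd4 (log2 3.32, SE 0.40), Kcnt2 (3.31, SE 0.80), Sh2d4b (3.18, SE 0.48) and Clasp2 (2.58, SE 0.57), with adjusted p from 1.25e-05 to 0.0113. The Clasp2 host had 4, 4 and 4 counts in control, 11 and 18 in AC and 39, 23 and 18 in UUO. Its other listed circRNAs were thus present in control kidney, where mmu_circ_0015332 was not counted. Kcnt2, a sodium-activated potassium channel, had 2, 0 and 6 counts in control, 2 and 23 in AC and 22, 36 and 44 in UUO, so AC replicate 1 was at the control level.

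Among hosts with several listed circRNAs the largest decreases were those of Ipcef1 (log2 -2.51, SE 0.71), Cpeb3 (-2.48, SE 0.31), Klhl3 (-2.20, SE 0.29), Gyk (-2.01, SE 0.39) and Oxct1 (-1.73, SE 0.24), with adjusted p from 1.68e-05 to 0.0305. For Klhl3 the sums were 77, 143 and 96 in control, 15 and 24 in AC and 14, 29 and 18 in UUO, without overlap. In all, 17 hosts were called with no single circRNA called. They included Ezh2, the H3K27 methyltransferase (log2 0.77, SE 0.18, adjusted p = 0.0104), and Myo9a, a myosin with a RhoGAP domain (1.77, SE 0.35, adjusted p = 0.00311), both chosen after their values were seen. With 1 library left out the Ipcef1 call held in 3 of 8 settings and Ezh2 in 6, while the other named hosts held in all 8. Without control replicate 3 the number of hosts called was 52, and without UUO replicate 3 it was 53.

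Of the 76 hosts with a called circRNA, 26 had another tested circRNA and 7 had more than 1 called (Arhgap10, Arhgap32, Bckdhb, Glis3, Klhl3, Oxct1 and Psd3). In 0 hosts were circRNAs called in both directions. The other tested circRNAs of hosts with one called higher had a positive log2 fold change in 14 of 17 cases, and those of hosts with one called lower a negative one in 24 of 28; circRNAs of a host may share reads and transcription, so they are not independent. Arhgap10 had 7 tested circRNAs, all negative, from -1.07 to -0.28, with a host sum of -1.03 (SE 0.12, adjusted p = 1.22e-05). Psd3 had 3, all positive, with a host sum of 1.64 (SE 0.21, adjusted p = 2.98e-05).

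Other hosts were uneven, and for 7 of the 76 the host sum did not pass. In Glis3, mmu_circ_0000943 and mmu_circ_0007673 were called higher while mmu_circ_0000942 had 4563 ± 688 CPM (SD, n = 3) in control and 4401 ± 627 CPM (SD, n = 5) in injured kidney. In Tns3, mmu_circ_0000234 had 8947 ± 995 CPM (SD, n = 3) and 10630 ± 2746 CPM (SD, n = 5), a log2 fold change of 0.25 (SE 0.19) beside 0.98 (SE 0.16) for mmu_circ_0000233. In Apbb2, an amyloid precursor-binding adaptor, mmu_circ_0012733 was called higher (log2 1.34, SE 0.32, adjusted p = 0.0188; lost without control replicate 2 or 3, adjusted p = 0.0826 at most, and with the deposited constants, 0.0993) while mmu_circ_0001351 had -0.72 (SE 0.32, adjusted p = 0.219). A test of each circRNA against the others of its host, added after the data had been seen (limma's diffSplice), called 0 of 514 circRNAs in 199 hosts, with 47 at an unadjusted p under 0.05. The lowest adjusted p were 0.101 for mmu_circ_0000942 of Glis3 and 0.124 for mmu_circ_0012733 of Apbb2. Without AC replicate 1 it called 2.

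**Figure D5:**
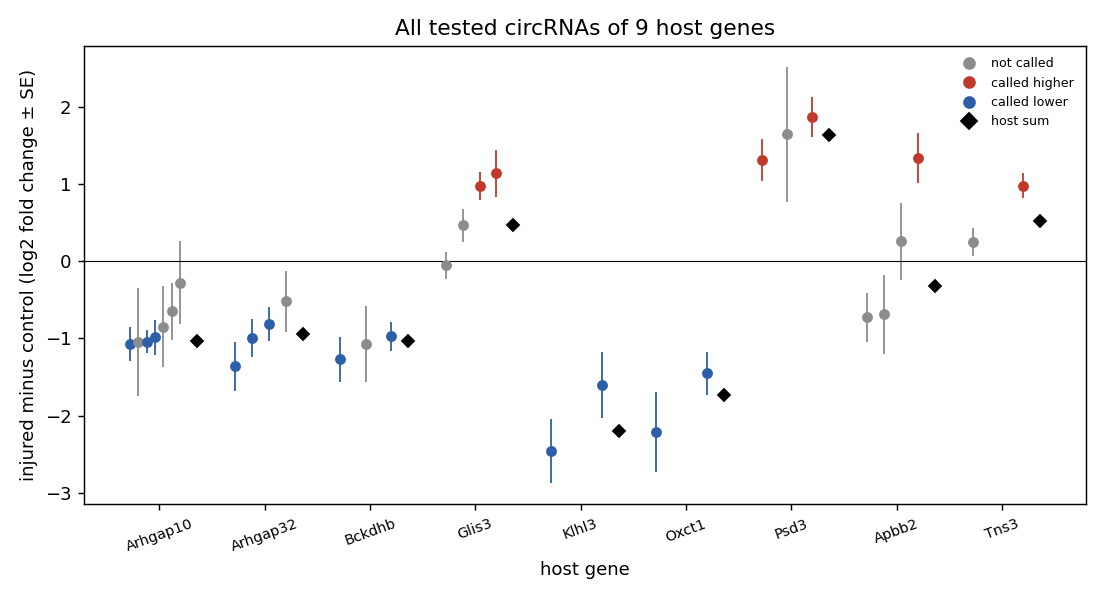
Fitted log2 fold change with SE, injured minus control (y axis), of every tested circRNA of 9 host genes (x axis), in red where called higher, blue where called lower and grey otherwise, with the host sum as a black diamond. All circRNAs of Arhgap10, Arhgap32, Bckdhb, Klhl3 and Oxct1 lie below 0 and those of Psd3 above it, while Glis3, Apbb2 and Tns3 hold circRNAs near or across 0 beside called ones.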

How the data were processed

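Mouse kidney total RNA was measured in 8 libraries. The deposited table holds whole-number circRNA counts per circBase identifier, without normalization, per the file headers and values; a second deposited table holds a signal, which is each count divided by 1 constant per library (all values matched within 2%), whose meaning no source used here gives. HISAT2, StringTie and mm9 are named in the submitters' processing notes, with no role; for the circRNA caller, its read minimum and the annotation nothing was given in the sources used. Names of 10 rows that had become numbers were restored from the source transcript, 32 rows name no host gene, and 0 columns belong to other samples. Without the mm9 genome no coordinates or sequences are printed. The row Vmn1r90 is of a multi-copy family and its name is uncertain.

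Counts were filtered with filterByExpr (minimum count 10, total 15), scaled with TMM factors and fitted with edgeR 4.0.16 (R 4.3.3) as 5 injured against 3 control libraries; 1 fit of 3 groups gave AC, UUO and their difference. P-values were adjusted by Benjamini-Hochberg over all tested circRNAs at 0.05. CPM used the filtered, TMM-scaled totals, and 1 count was worth 19.55 to 30.47 CPM; marker sums used the full totals. SE was the absolute log2 change divided by the root of F. Where all controls were at 0, the fold is a bound against 3 counts over the control group; bounds and 95% intervals cover counting error only. limma 3.58.1, DESeq2 1.42.0, other scalings and filters, a replicate block and each library left out were alternatives. The pipeline was tested on simulated counts.

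CircRNAs were named by rule: the 12 largest called changes each way without overlap and with a mean count of at least 10, called members of the gene lists, hosts with several calls, the 6 most abundant calls, the 5 lowest adjusted p among circRNAs called only when pooled, and the 5 largest host sums each way. Further names were picked with their values known. The comparison, members and lists were chosen with earlier results of these data known. Some items are not reported here, though counts over all circRNAs and lists include them.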

Additional observations from a re-analysis of the deposited data

Results flagged for a closer look

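Among the named circRNAs given here, that of Zfp276 (mmu_circ_0014660) had 1 injured library far from the other 4, by Dixon's test at its 95% critical value of 0.71 for 5 libraries; chance alone flags about 1 in 20 groups. It was at 0.0 CPM in AC replicate 2, while the other injured libraries lay between 176 and 246 CPM (gap over range 0.715).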

How the results depend on the processing

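Against 87 calls (48 higher, 39 lower), DESeq2 gave 58 and 41, limma-voom 33 and 35, and the deposited constants 20 and 59. No pairing by replicate number was seen: deviations of same-numbered libraries correlated between -0.12 and 0.03, and 0 of 8 were closest to their own number. With 2 or 3 libraries per group this check cannot exclude a pairing. With the replicate block there were 55 calls (36 higher, 19 lower) and 62 hosts. With 1 library left out the calls ran from 40 to 82 (24 to 50 higher, 16 to 33 lower), hosts from 52 to 86 and within-host calls from 0 to 2, the 2 being without AC replicate 1. UUO against AC stayed at 0 by edgeR under every library left out, and DESeq2 gave 1. The injured minus control difference in circRNAs above 0 changed sign without control replicate 2 (50.2, exact permutation p = 0.762) and ran from -150 to 50.2, that in total count from -12226 to -1638 and that in summed signal from -1.80 to -0.41. Of 66 named circRNAs, 66 kept the call by DESeq2, 50 by limma-voom, 50 with the constants, 43 with the block and 34 to 58 without 1 library; none changed sign. With the constants, medians of the 13 lists relative to that of all tested circRNAs moved by less than the SD of the list median over the injured libraries. The cause of these differences was not tested. A count of 3 or fewer limits circRNAs near 0.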

Other observations

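The naming rule left 21 of the 87 called circRNAs aside, 13 higher and 8 lower; those given here were chosen after their values were seen. Among the 13, Apbb2 is described above, and changes of the others lay between 1.68-fold and 3.14-fold. Arid5b, a DNA-binding partner of histone demethylases (mmu_circ_0002370), was at 332, 196 and 651 CPM in control, 752 and 1127 CPM in AC and 1118, 1699 and 1474 CPM in UUO. Its libraries did not overlap, and the log2 fold change of 1.65 (adjusted p = 0.0188) was 2.25 without control replicate 3; the call was lost without control replicate 1 or 2 or UUO replicate 2 or 3 (adjusted p up to 0.0780). Rras2, a Ras-related GTPase, gave an abundant circRNA (mmu_circ_0001614) with 4191 ± 225 CPM (SD, n = 3) in control and 7054 ± 1034 CPM (SD, n = 5) in injured kidney (adjusted p = 0.0118; 0.0599 without control replicate 3, 0.255 with the deposited constants). The circRNA mmu_circ_0000903, which has no listed host gene, was 1.89-fold higher (adjusted p = 0.00986), held without any single library and missed the threshold with the constants (0.125). Fam82a1, now Rmdn2 (mmu_circ_0007033), had 1227 CPM in AC replicate 1, within the control range of 954 to 1251 CPM, and 2194 to 3300 CPM in the other injured libraries.

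Among the 8 lower, Tdrd3, a Tudor-domain protein that binds methylated arginines (mmu_circ_0000561), was at 1935, 1290 and 1995 CPM in control, 676 and 488 CPM in AC and 932, 690 and 484 CPM in UUO. Its groups lay apart by 2.65-fold (adjusted p = 0.00876), and the call held without any single library. Thrb, a receptor for thyroid hormone (mmu_circ_0000504), was at 2129, 3793 and 3426 CPM in control, 1328 and 1127 CPM in AC and 719, 1059 and 2090 CPM in UUO. UUO replicate 3 came close to the lowest control, and the 2.45-fold decrease (adjusted p = 0.0150) was lost without control replicate 2 or 3 (adjusted p up to 0.0749). Bnc2, a zinc-finger gene (mmu_circ_0001225), was 2.42-fold lower (adjusted p = 0.0165), lost without control replicate 2 (0.120). Ccdc141, Gas2, Kidins220, Ndel1 and Pms1 were the other 5, and each of these lost the call in at least 4 of the 8 settings without 1 library.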
